A study of Mus musculus with 4 samples.

Results

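Effector regulatory T cells that carry transcripts of the chemokine receptor Ccr8 and the costimulatory receptor Tnfrsf9 (4-1BB) were studied in mouse tumours of MC38b, named for the MC38 colon carcinoma line, by droplet-based single-cell RNA sequencing. They comprised 1460 of 32779 barcodes that passed the quality limits, which were at least 1000 unique molecular identifiers (UMIs, each counting 1 captured RNA molecule), at least 500 genes and under 10% mitochondrial UMIs. A member had at least 2 UMIs over Cd3d, Cd3e and Cd3g, at least 1 of Foxp3 and at least 2 over Ccr8 and Tnfrsf9. It also had no UMI of Cd8a or Cd8b1, under 3 over the cycling genes Mki67 and Top2a, and at most 2 over C1qa, C1qb and C1qc and at most 2 of Lyz2, which mark macrophages. The members were thus selected on the UMI counts of these genes, whose values are given as a description and support nothing.

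The groups were 1 antiPD1TL1A library (tumours treated with antibodies against mouse PD-1 and mouse TL1A), 1 antiPD1 library (antibody against mouse PD-1 alone) and 2 PBS libraries (saline), all from tumours taken 24 h after dose 2. The members numbered 423 in antiPD1TL1A, 464 in antiPD1, 288 in PBS 1 and 285 in PBS 2. The submitters name 2 saline and 4 treated animals and state that cell suspensions were pooled before sorting, without saying which animals entered which library. The sorted fractions (T cells, other immune cells and CD45-negative cells) were remixed in fixed proportions before loading, so shares are given only among T cells. With 1 library per treated group, the spread of the test comes from the PBS pair alone, and it may be technical.

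Regulatory T cells (Treg) are CD4 T cells that restrain other immune cells, and the transcription factor FOXP3 specifies them. In tumours a large part of them is in an activated, effector state with the high-affinity interleukin-2 receptor, CTLA-4, several receptors of the tumour necrosis factor (TNF) family and the chemokine receptor CCR8 at the surface. TL1A, the product of Tnfsf15, is a TNF family cytokine whose receptor DR3 is encoded by Tnfrsf25 and costimulates T cells, Treg included, while PD-1, encoded by Pdcd1, restrains T cells after activation.

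Depth and purity were examined first. Total UMIs of the members were 2762457 in antiPD1TL1A, 2004042 in antiPD1, 1853524 in PBS 1 and 2027723 in PBS 2, and the median UMIs per member were 4965, 3569, 4984 and 5856 in the same libraries, so the antiPD1 barcodes were the shallowest. In antiPD1TL1A 17 members (4.02%) held over 15000 UMIs, in antiPD1 2 (0.431%), in PBS 1 11 (3.82%) and in PBS 2 11 (3.86%). No member barcode was shared between libraries, although 16 to 506 barcodes of any cell type were shared between pairs of libraries. Summed over members, 12 of 12 macrophage and monocyte markers had UMIs, with 328, 367, 283 and 266 CPM (counts scaled to a common library total) in antiPD1TL1A, antiPD1, PBS 1 and PBS 2. Natural killer (NK) cell markers summed to 309, 138, 138 and 192 CPM with 7 of 7 detected, dendritic markers to 404, 251, 404 and 593 CPM with 8 of 9 detected, and tumour or stroma markers to 271, 186, 220 and 329 CPM with Krt8, Krt19 and Cldn4 at 0. Neutrophil markers summed to 63.0 CPM in antiPD1TL1A and 64.4 CPM in antiPD1 against 8.63 CPM in PBS 1 and 24.7 CPM in PBS 2. All intervals given are 95% exact (Clopper-Pearson) and cover counting error only.

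Of the label's markers, Foxp3, Ccr8 and Tnfrsf9 were part of the rule, so that only Il2ra and Ctla4 could check the label, and both were found in most members. Il2ra, the alpha chain of the interleukin-2 receptor, had a UMI in 92.4% of members in antiPD1TL1A, 88.8% in antiPD1, 89.6% in PBS 1 and 93.3% in PBS 2, against 7.28%, 5.12%, 4.00% and 4.18% of C1q macrophage barcodes, which should lack it and are deeper (median 13384.5, 8085.5, 16625 and 20099 UMIs). Ctla4, the inhibitory receptor CTLA-4, had one in 89.6%, 89.9%, 94.8% and 94.0% of members, against 13.6%, 6.83%, 5.33% and 8.68% of those macrophage barcodes. Tnfrsf9 was found in 99.8%, 100%, 99.0% and 99.6% of members and Ccr8 in 30.3%, 20.5%, 33.0% and 36.8%, so that Tnfrsf9 UMIs chose nearly all members and only 1, 0, 3 and 1 members entered on Ccr8 alone. After each barcode was thinned to 2000 UMIs, which left out 10, 27, 3 and 0 members, Ccr8 was found in 12.8%, 11.4%, 14% and 15.8%. Macrophage barcodes with a Ccr8 UMI made up 0.485%, 0.171%, 0% and 0.322%. The 0 of 450 in PBS 1 allows a share of up to 0.667%, which is 3 counts of the total.

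The rule genes also varied among the members. The median member had 8, 6, 6 and 8 UMIs of Ccr8 and Tnfrsf9 together and 2, 2, 2 and 3 of Foxp3 in antiPD1TL1A, antiPD1, PBS 1 and PBS 2. Summed over members and without library scaling, Tnfrsf9 (chromosome 4, 150914562 to 150946102, GRCm38) stood at 1375, 1517, 1144 and 1234 CPM, Ccr8 (chromosome 9, 120092114 to 120094906) at 70.2, 66.9, 86.3 and 97.6 CPM and Foxp3 (chromosome X, 7573644 to 7595245) at 439, 595, 468 and 497 CPM. At the edge of the rule, 34, 57, 32 and 23 members had exactly 2 UMIs of Ccr8 and Tnfrsf9, and 44, 74, 19 and 21 Foxp3 T barcodes had exactly 1. Il2ra stood at 730, 882, 785 and 844 CPM just inside and at 610, 583, 1073 and 1412 CPM just outside, and Ctla4 at 1306, 1038, 1458 and 1757 CPM just inside and at 1500, 1123, 1370 and 1545 CPM just outside. Neither gene was higher just inside than just outside in all 4 libraries.

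Members with a Ccr8 UMI differed from those without one in the same direction in all 4 libraries for 13 of 45 genes compared, 9 higher and 4 lower, which is given as a description with no test. The 45 were genes chosen for known roles in Treg, with Foxp3 and Tnfrsf9 added. The share over all genes was not measured, and some genes would share a direction by chance, so the count itself is no result. They were also deeper in every library (median 5598.5, 4044, 5354 and 6279 UMIs in antiPD1TL1A, antiPD1, PBS 1 and PBS 2, against 4704, 3496, 4875 and 5622 UMIs in members without one). The ratio of summed CPM was 1.13 to 1.74 for Areg, which encodes amphiregulin, a growth factor of tissue repair, and 1.28 to 2.06 for Havcr2, which encodes the checkpoint receptor TIM-3. It was 1.21 to 1.46 for Irf4, a transcription factor of effector Treg, 1.15 to 1.83 for Itgb8, the integrin chain that activates latent TGF-beta, and 1.18 to 1.40 for Tnfrsf4 (OX40). The other genes above 1 were Ctla4 (1.02 to 1.22), Batf (1.11 to 1.43), Rora (1.19 to 1.58) and Ebi3 (1.06 to 1.45). Below 1 in all 4 libraries were Ccr4, another chemokine receptor (0.502 to 0.835), Nrp1, the neuropilin of thymus-derived Treg (0.368 to 0.929), Cxcr3 (0.705 to 0.932) and Cd274, which encodes PD-L1 (0.582 to 0.909). Foxp3 itself ranged from 0.842 to 1.05.

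How large a share of Treg and of T cells the members made up was compared next. They were 81.8% of Cd8-negative, non-cycling Foxp3 T barcodes in antiPD1TL1A (423 of 517, interval 78.2 to 85.0), 75.9% in antiPD1 (464 of 611, 72.3 to 79.3), 84.5% in PBS 1 (80.2 to 88.1) and 86.9% in PBS 2 (82.7 to 90.3). With each barcode thinned to 2000 UMIs the shares were 65.3%, 60.5%, 64.8% and 59.7% in the same libraries, so antiPD1, the shallowest library, no longer lay below both PBS libraries. Of all T barcodes, members made up 7.37% in antiPD1TL1A (423 of 5739, 6.71 to 8.08), 9.76% in antiPD1 (8.93 to 10.6), 9.05% in PBS 1 (8.08 to 10.1) and 10.1% in PBS 2 (9.02 to 11.3). The antiPD1TL1A share was the lowest of the 4 and remained so with barcodes thinned to 2000 UMIs (4.52% in antiPD1TL1A and 6.78% in antiPD1, against 5.42% in PBS 1 and 5.60% in PBS 2), though not to 1000 (2.04% in antiPD1TL1A, against 1.89% in PBS 2). It was 10.99% in antiPD1TL1A, against 11.7% in antiPD1, 10.8% in PBS 1 and 12.5% in PBS 2, when barcodes with Cd8a or Cd8b1 UMIs were admitted. In antiPD1TL1A 36.2% of Foxp3 T barcodes held such a UMI, against 18.0% in antiPD1, 18.0% in PBS 1 and 24.4% in PBS 2. The shares were not tested.

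**Figure D1:**
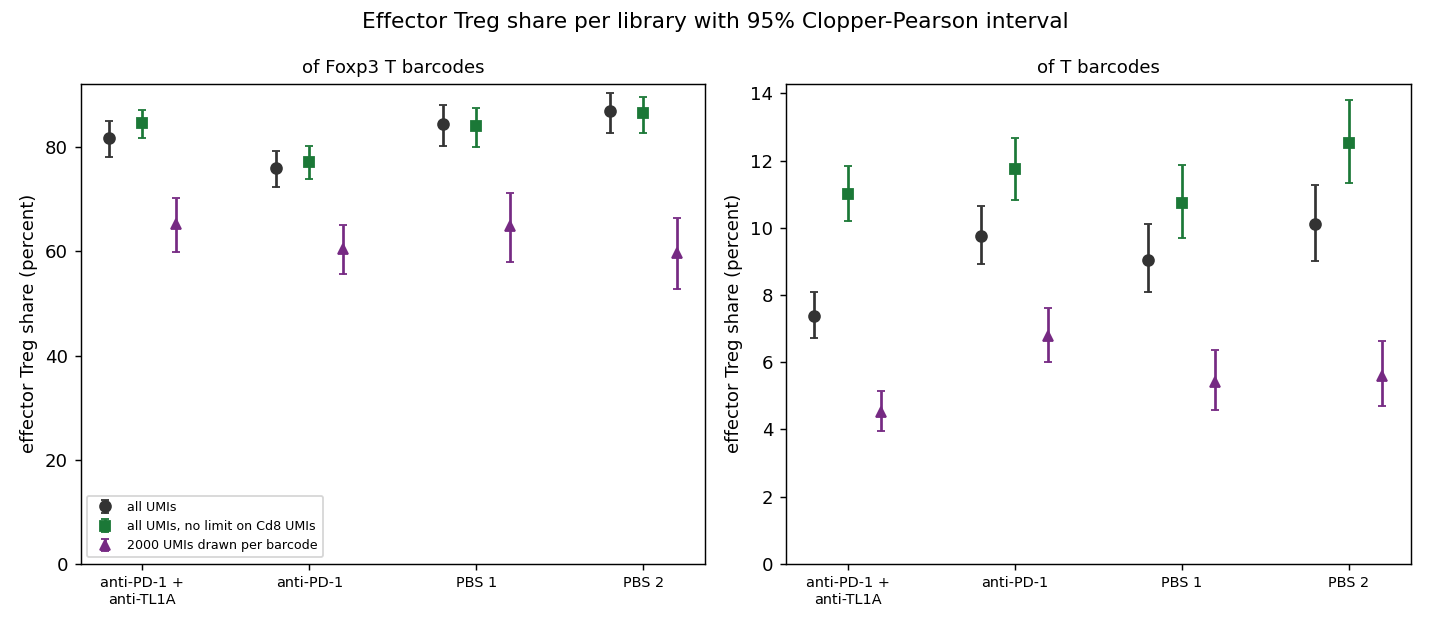
Share of effector Treg among Foxp3 T barcodes and among all T barcodes in percent, 1 point per library with its 95% exact interval, for all UMIs, for all UMIs with no limit on Cd8 UMIs, and for 2000 UMIs drawn per barcode. The antiPD1TL1A library has the lowest share of T barcodes with all UMIs (7.37%), but not without the limit on Cd8 UMIs (10.99%, against 10.8% in PBS 1).

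The members were set against other Treg, the 179 Foxp3 T barcodes with no Ccr8 or Tnfrsf9 UMI (50 in antiPD1TL1A, 73 in antiPD1, 34 in PBS 1 and 22 in PBS 2), by summing UMIs per library and class and testing with edgeR with the library as a block. Relative to other Treg, effector Treg had more transcripts of activation receptors, suppressive mediators and granzyme B, and fewer of genes of resting, recirculating T cells. Of 9335 genes, 265 were higher (2.84%) and 222 lower (2.38%), 487 in all (5.22%), at an adjusted p under 0.05. Median depths of the classes were close (4519, 3122, 4630 and 5759 UMIs in other Treg of antiPD1TL1A, antiPD1, PBS 1 and PBS 2), with effector Treg the deeper in each library. The deepest barcodes differed more, at 24011, 9058, 15662 and 8805 UMIs in other Treg against 74433, 50955, 76741 and 76647 UMIs in effector Treg. Values among barcodes of 3000 to 8000 UMIs are therefore given for some genes and lists below. In the same libraries, B cell markers summed to 297, 277, 415 and 239 CPM in other Treg, against 159, 195, 181 and 166 CPM in effector Treg. Dendritic markers summed to 872, 59.6, 890 and 59.9 CPM in other Treg, against 404, 251, 404 and 593 CPM in effector Treg. The part of such cells in the differences was not tested. Sums cannot tell fewer cells with a transcript from less RNA per cell. Below, 4 values are given in the order antiPD1TL1A, antiPD1, PBS 1 and PBS 2, as CPM scaled by the trimmed mean of M-values (TMM) unless stated otherwise, and errors of log2 fold changes are standard errors (SE).

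Among suppressive effectors and Treg surface molecules, 13 of 22 tested rose and 1 fell, with a median log2 fold change of 0.61 against 0.02 over all genes. Il2ra (chromosome 2, 11642807 to 11693193) stood at 1275, 1314, 1056 and 1335 CPM in effector Treg, against 282, 582, 373 and 667 CPM in other Treg. All effector values lay above all others, and the log2 fold change was 1.46 ± 0.15 (adjusted p = 3.55e-06). Il10, the anti-inflammatory cytokine interleukin-10 (chromosome 1, 131019845 to 131024974), had 295, 393, 336 and 364 CPM in effector Treg and 44.5, 214, 164 and 175 CPM in other Treg, again without overlap (1.32 ± 0.21, adjusted p = 0.000279). Gzmb, the cytotoxic protease granzyme B, had 1499, 1364, 1273 and 1262 CPM against 494, 541, 685 and 584 CPM in other Treg (1.25 ± 0.11, adjusted p = 2.19e-10). Smaller rises, higher in 4 of 4 libraries, were those of Ctla4 (0.42 ± 0.09), the Helios gene Ikzf2 (0.55 ± 0.08), the costimulator Icos (0.58 ± 0.10), Tgfb1 (0.69 ± 0.16) and the checkpoint receptors Tigit (0.76 ± 0.21) and Lag3 (1.07 ± 0.27). The calls of Ctla4, Tgfb1, Lag3 and Tigit did not hold without the antiPD1TL1A library (adjusted p = 0.0678, 0.103, 0.323 and 0.273), nor did Ctla4 without PBS 2 (adjusted p = 0.057) or Tigit without PBS 1 (adjusted p = 0.181). With DESeq2, Lag3 and Tigit did not pass either (adjusted p = 0.109 and 0.151). Among barcodes of 3000 to 8000 UMIs, 18 of 22 rose and 1 fell (median 0.86). The member that fell was Nrp1, at 40.7, 36.5, 42.0 and 52.1 CPM in effector Treg and 186, 173, 147 and 100 CPM in other Treg (-1.88 ± 0.22, adjusted p = 1.86e-07).

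Not every suppressive gene passed. Itgb8 had 258, 205, 144 and 163 CPM in effector Treg and 29.7, 86.4, 141 and 33.3 CPM in other Treg, where its levels spread widely (1.45 ± 0.51, adjusted p = 0.278). Lrrc32, which encodes GARP, the docking receptor of latent TGF-beta, had 126 to 130 CPM in effector Treg and 63.1 to 96.2 CPM in other Treg (0.63 ± 0.21, adjusted p = 0.075). The ectoenzyme genes Entpd1 (CD39; 0.48 ± 0.17, adjusted p = 0.101) and Nt5e (CD73; 0.43 ± 0.25, adjusted p = 0.505) and the integrin gene Itgae (0.08 ± 0.21, adjusted p = 0.922) did not pass either. Ebi3, a subunit of interleukin-35, had 25.7 to 38.6 CPM in effector Treg and 11.1 to 40.9 CPM in other Treg, which overlap.

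The TNF receptor family, to which Tnfrsf9 belongs, had 5 of 11 tested genes higher and 1 lower (median 0.51). Tnfrsf4 (OX40) stood at 1279, 2035, 1218 and 1254 CPM in effector Treg, against 397, 850, 543 and 450 CPM in other Treg (1.39 ± 0.11, adjusted p = 5.26e-12). Tnfrsf18, which encodes the costimulator GITR, stood at 669, 1063, 642 and 660 CPM in effector Treg and 330, 718, 322 and 434 CPM in other Treg (0.79 ± 0.12, adjusted p = 1.23e-05). For both, each library was higher in effector Treg, and the antiPD1 library held the top value of either class. Tnfrsf1b (TNF receptor 2; 0.52 ± 0.16), Cd27 (0.77 ± 0.21) and Tnfrsf8 (CD30) were the other rises, and Tnfrsf26 fell. The calls of Tnfrsf1b and Cd27 were lost without PBS 1 (adjusted p = 0.276 and 0.199), that of Tnfrsf1b also without PBS 2 or antiPD1TL1A (adjusted p = 0.0794 and 0.341) and that of Cd27 also without antiPD1 (adjusted p = 0.196). With DESeq2 both were lost as well (adjusted p = 0.22 and 0.133).

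Tnfrsf4 (chromosome 4, 156013843 to 156016612) and Tnfrsf18 (chromosome 4, 156026164 to 156028895) are neighbours, 9551 bases apart, and Tnfrsf9 lies on the same chromosome. Their promoters are shown because Tnfrsf9 UMIs chose nearly all members and because the neighbouring pair was higher in effector Treg in each library. The windows (250 bases before to 50 after a transcript start, RefSeq, GRCm38.p6, plus strand) are chr4:150927749-150928048 for Tnfrsf9 (the downstream of its starts in the table), chr4:156013445-156013744 for Tnfrsf4 and chr4:156026072-156026371 for Tnfrsf18. Capitals mark matches on either strand to the letters TGANTCA, bound by AP-1 factors, and to GGGA and CC with 4 bases of any kind between them, bound by NF-kB. The pair of motifs do not overlap here.
Tnfrsf9: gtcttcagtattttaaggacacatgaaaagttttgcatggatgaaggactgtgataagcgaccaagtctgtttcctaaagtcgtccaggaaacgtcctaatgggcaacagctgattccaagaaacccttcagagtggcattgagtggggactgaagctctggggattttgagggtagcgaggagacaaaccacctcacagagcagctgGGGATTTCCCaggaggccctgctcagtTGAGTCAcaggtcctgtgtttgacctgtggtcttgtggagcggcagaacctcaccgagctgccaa
Tnfrsf4: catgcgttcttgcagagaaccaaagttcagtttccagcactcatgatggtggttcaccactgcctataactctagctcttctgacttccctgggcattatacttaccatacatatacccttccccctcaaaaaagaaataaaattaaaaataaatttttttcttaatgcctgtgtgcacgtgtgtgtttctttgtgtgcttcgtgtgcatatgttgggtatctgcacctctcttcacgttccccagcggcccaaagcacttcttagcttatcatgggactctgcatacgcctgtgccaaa
Tnfrsf18: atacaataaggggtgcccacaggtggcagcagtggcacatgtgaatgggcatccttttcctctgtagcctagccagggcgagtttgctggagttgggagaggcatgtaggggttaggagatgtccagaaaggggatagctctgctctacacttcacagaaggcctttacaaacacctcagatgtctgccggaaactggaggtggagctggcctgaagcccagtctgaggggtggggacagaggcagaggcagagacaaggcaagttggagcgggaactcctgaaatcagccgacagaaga
The Tnfrsf9 window held 1 match to each motif. Neither motif was found in the windows of Tnfrsf4 and Tnfrsf18, nor in that of the upstream Tnfrsf9 start (chr4:150919905-150920204). Of 32851 promoters of the same 300 bases, 7.81% held the AP-1 letters and 20.7% the NF-kB letters. These matches are a description of the letters and say nothing of what binds there.

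Checkpoint and costimulatory receptors had 8 of 18 higher and 1 lower (median 0.46). Havcr2 had 149, 133, 151 and 164 CPM in effector Treg and 55.7, 54.5, 90.5 and 8.34 CPM in other Treg (1.43 ± 0.26, adjusted p = 0.000332). Pdcd1 (chromosome 1, 94038305 to 94052553), the target of the antibody, had 46.4, 79.8, 48.6 and 38.5 CPM in effector Treg and 26.0, 31.8, 11.3 and 8.34 CPM in other Treg (1.37 ± 0.35, adjusted p = 0.0123), a call lost without PBS 1 or without antiPD1 (adjusted p = 0.0803 and 0.103). It was also lost with DESeq2 (adjusted p = 0.112). Cd80, a ligand of CTLA-4 and CD28, rose by 1.81 ± 0.32. Of the tissue repair genes 5 of 12 were higher and none lower (median 0.56). Areg (chromosome 5, 91139599 to 91148432) had 448, 497, 336 and 321 CPM in effector Treg and 44.5, 105, 45.3 and 142 CPM in other Treg (2.4 ± 0.23, adjusted p = 3.93e-07), so the lowest effector value was above the highest of the others. Penk, the enkephalin precursor, had 84.6, 58.4, 48.6 and 78.9 CPM against 7.42, 9.09, 33.9 and 0 CPM in other Treg (2.39 ± 0.44), and Klrg1, a receptor of terminally differentiated lymphocytes, rose by 0.90 ± 0.20 but did not pass without antiPD1TL1A (adjusted p = 0.116). Il1rl1, which encodes the interleukin-33 receptor ST2, had 23.5 to 43.9 CPM in effector Treg and 0 to 192 CPM in other Treg and did not pass (adjusted p = 0.865).

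Transcription factors of effector Treg had 9 of 23 higher and none lower (median 0.53). Maf had 1025, 949, 1068 and 1130 CPM in effector Treg and 471, 677, 679 and 842 CPM in other Treg (0.67 ± 0.11). Tbx21, which encodes T-bet, the T helper 1 factor, had 140, 171, 109 and 137 CPM against 70.5, 77.3, 33.9 and 8.34 CPM in other Treg (1.43 ± 0.25, adjusted p = 0.000144). Bhlhe40 (0.97 ± 0.18), Rbpj (0.88 ± 0.15), Id2 (0.88 ± 0.17), the NF-kB subunits Rel (0.73 ± 0.14) and Nfkb1 (0.45 ± 0.10), Hif1a (0.66 ± 0.11) and Stat3 (0.56 ± 0.12) rose as well. Batf (0.21 ± 0.24), Irf4 (0.10 ± 0.21) and Prdm1, which encodes BLIMP-1 (0.55 ± 0.26), did not pass (adjusted p = 0.774, 0.901 and 0.315). Glycolysis and hypoxia genes had 7 of 26 higher and none lower (median 0.43), among them Slc16a3, a lactate exporter (1.93 ± 0.41), and Hilpda, a hypoxia-induced lipid droplet protein named for the size of its change, rose by 2.4 ± 0.29.

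Genes of naive and resting T cells went the other way, with 8 of 17 lower and 1 higher (Satb1; median -0.80). S1pr1, the receptor for egress from tissue (chromosome 3, 115710433 to 115715072), had 60.5, 31.3, 32.8 and 44.8 CPM in effector Treg and 245, 145, 289 and 108 CPM in other Treg (-2.22 ± 0.23, adjusted p = 9.78e-09). Tcf7, the TCF-1 gene of naive and stem-like T cells, had 25.6, 13.6, 22.9 and 16.6 CPM in effector Treg and 126, 63.6, 96.2 and 58.4 CPM in other Treg (-2.14 ± 0.29). No effector value of either gene reached the lowest of the others. Klf3 (-2.18 ± 0.28), Klf2 (-1.38 ± 0.16), Lef1 (-1.01 ± 0.17), Bach2 (-0.98 ± 0.14) and the survival gene Bcl2 (-1.02 ± 0.23) fell too, Bcl2 not without antiPD1 (adjusted p = 0.0791). Among the other named genes with large falls were the receptor tyrosine kinase inhibitor Lrig1 (-2.22 ± 0.20), Aff3 (-1.82 ± 0.17) and Emb (-1.64 ± 0.12).

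Chemokine receptor and adhesion genes were split, with 4 of 24 higher and 5 lower (median -0.05). Ccr4 had 29.5, 42.8, 28.9 and 38.5 CPM in effector Treg and 63.1, 63.6, 96.2 and 83.4 CPM in other Treg (-1.12 ± 0.28, adjusted p = 0.00803), a call not held without antiPD1TL1A (adjusted p = 0.06) or PBS 1 (adjusted p = 0.114). DR3 signalling genes had 0 of 14 called. Type I interferon genes had 0 of 29 called (median 0.03) and interferon-gamma response genes 2 of 37 (median 0.14). A few of the genes called higher are known from other cell types. Col3a1 and Dcn, matrix genes of fibroblasts, were called higher (2.63 ± 0.49 and 2.55 ± 0.40) with 153 and 152 CPM in PBS 2. Tumour or stroma markers, a list that holds Col3a1 itself, summed to 271, 186, 220 and 329 CPM in effector Treg and 257, 306, 262 and 496 CPM in other Treg. The part of such cells was not tested. Gzmc was called higher by 2.13 ± 0.36 but was at -0.00028 among barcodes of 3000 to 8000 UMIs. In that band of depth edgeR called 625 genes, 388 of them shared with the 487.

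**Figure D2:**
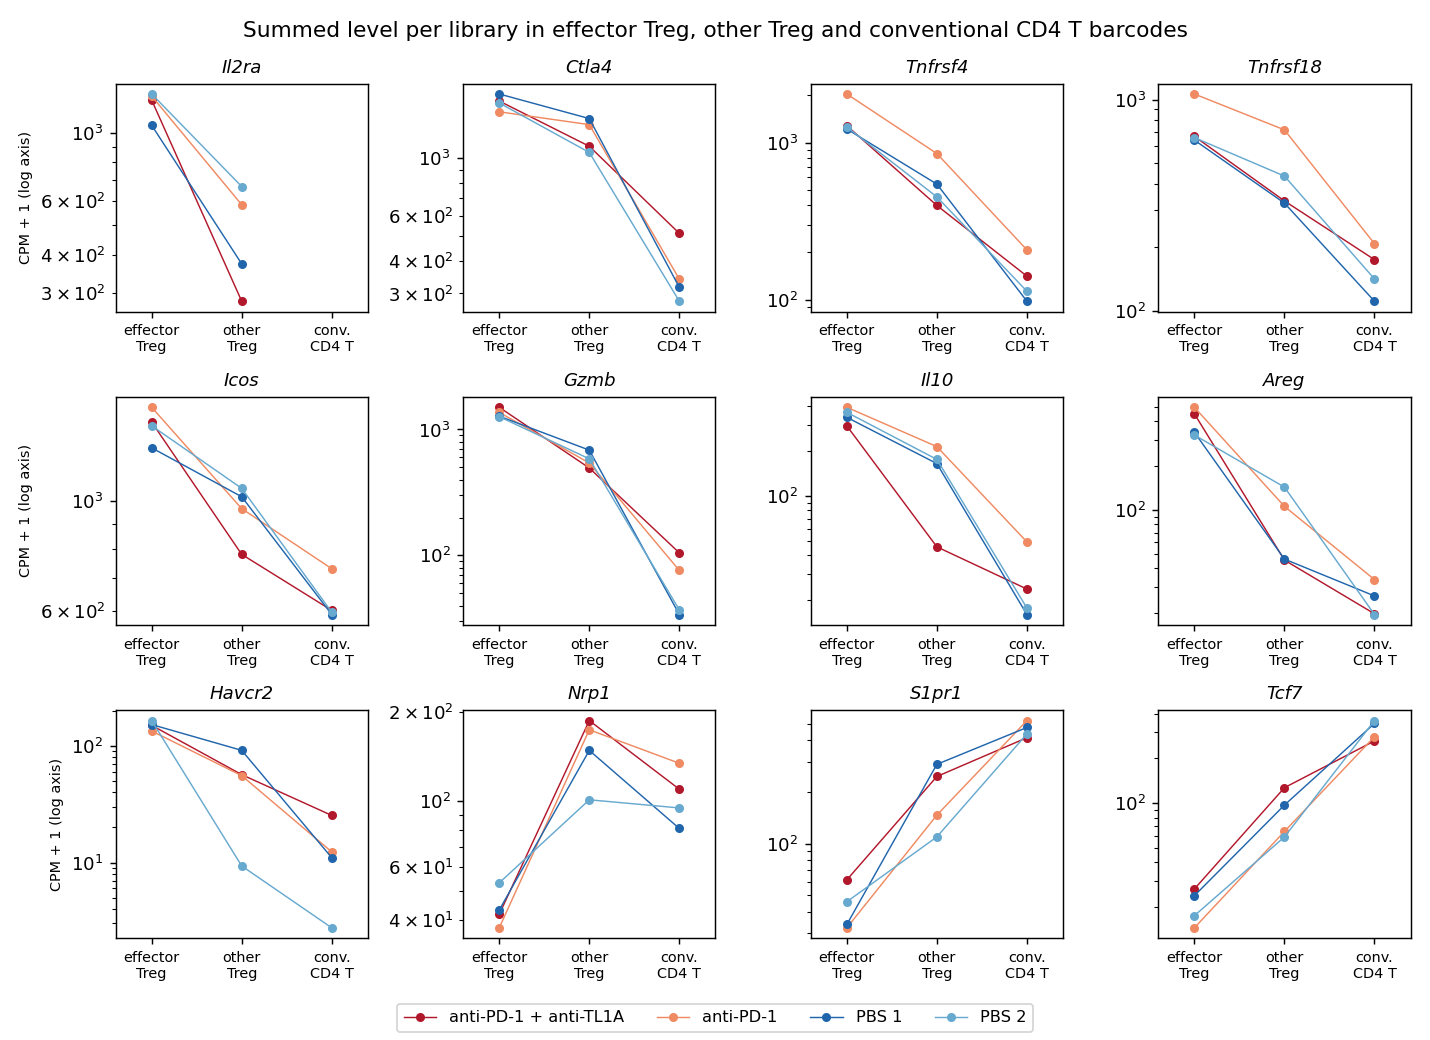
TMM-scaled CPM of selected genes in effector Treg, other Treg and conventional CD4 T barcodes, 1 line per library, on a log axis of CPM + 1 (Il2ra is not drawn for conventional CD4 T barcodes, where its absence was part of the rule). Il2ra, Tnfrsf4, Areg and Il10 lie higher in effector Treg than in other Treg in all 4 libraries.

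The members were also set against conventional CD4 T barcodes, which were Foxp3-negative T barcodes with Cd4 and without Il2ra, Ccr8 and Tnfrsf9 UMIs (255 in antiPD1TL1A, 199 in antiPD1, 206 in PBS 1 and 202 in PBS 2). Here 1872 of 10195 genes were higher (18.4%) and 1721 lower (16.9%), 3593 in all (35.2%), so that a call alone sets a gene little apart. Of suppressive effectors and Treg surface molecules 20 of 21 rose and 1, Nrp1, fell (median 2.47 against -0.01 over all genes). Itgb8 (chromosome 12, 119158022 to 119238802) had 247, 198, 139 and 155 CPM in effector Treg and 2.43, 2.83, 3 and 1.75 CPM in conventional CD4 T barcodes (log2 fold change 6.2 ± 0.21, adjusted p = 2.1e-15). Lrrc32 had 121 to 124 CPM against 0.811 to 6.14 CPM (5.35 ± 0.25). Frmd5, a FERM domain gene, had 1026, 1036, 1007 and 1349 CPM against 0, 1.42, 0 and 5.26 CPM in conventional CD4 T barcodes (9.29 ± 0.24), among the 15 named rises. Tissue repair genes had 10 of 13 higher and 1 lower (median 2.58), Areg by 4.05 ± 0.13 and Il1rl1, which had not passed against other Treg, by 1.91 ± 0.23 (22.7 to 42.0 CPM in effector Treg, 7.90 to 12.7 CPM in conventional CD4 T barcodes). Klrg1 rose by 4.97 ± 0.18, Itgae by 4.84 ± 0.19 and Il10 by 3.78 ± 0.18.

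Several genes that separated effector from other Treg did not separate effector Treg from conventional CD4 T barcodes. Pdcd1 had 44.4, 76.8, 47.0 and 36.7 CPM in effector Treg and 77.0, 65.1, 45.0 and 53.5 CPM in conventional CD4 T barcodes (-0.29 ± 0.16, adjusted p = 0.173), and Tbx21 had 133, 165, 106 and 131 CPM against 114, 119, 127 and 118 CPM (0.15 ± 0.11, adjusted p = 0.34). Both ranges overlap. The TL1A receptor gene Tnfrsf25 was scarce in effector Treg, with 8, 5, 8 and 10 UMIs in all, found in 1.89%, 1.08%, 2.78% and 3.16% of members. It had 2.75, 2.51, 4.23 and 4.64 CPM in effector Treg and 8.11, 11.3, 15 and 11.4 CPM in conventional CD4 T barcodes (-1.65 ± 0.38, adjusted p = 0.00169). No member had a UMI of its ligand gene Tnfsf15, which allows up to 1.09, 1.5, 1.62 and 1.48 CPM. Genes of T cell help fell, among them Cd40lg (4.13 to 12.1 CPM against 96.5 to 135 CPM; -3.93 ± 0.17), Tnfsf8 (-3.98 ± 0.18) and Tnfsf11, which encodes RANKL (-2.99 ± 0.18), and of the conventional CD4 T cell markers 8 of 8 fell. Naive and resting T cell genes had 13 of 19 lower and 1 higher (median -1.62). Interferon-gamma response genes had 25 of 37 higher and 3 lower (median 0.69), glycolysis and hypoxia genes 16 of 26 higher and 1 lower (median 0.57), and NF-kB target genes 15 of 24 higher and 2 lower (median 0.57).

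**Figure D3:**
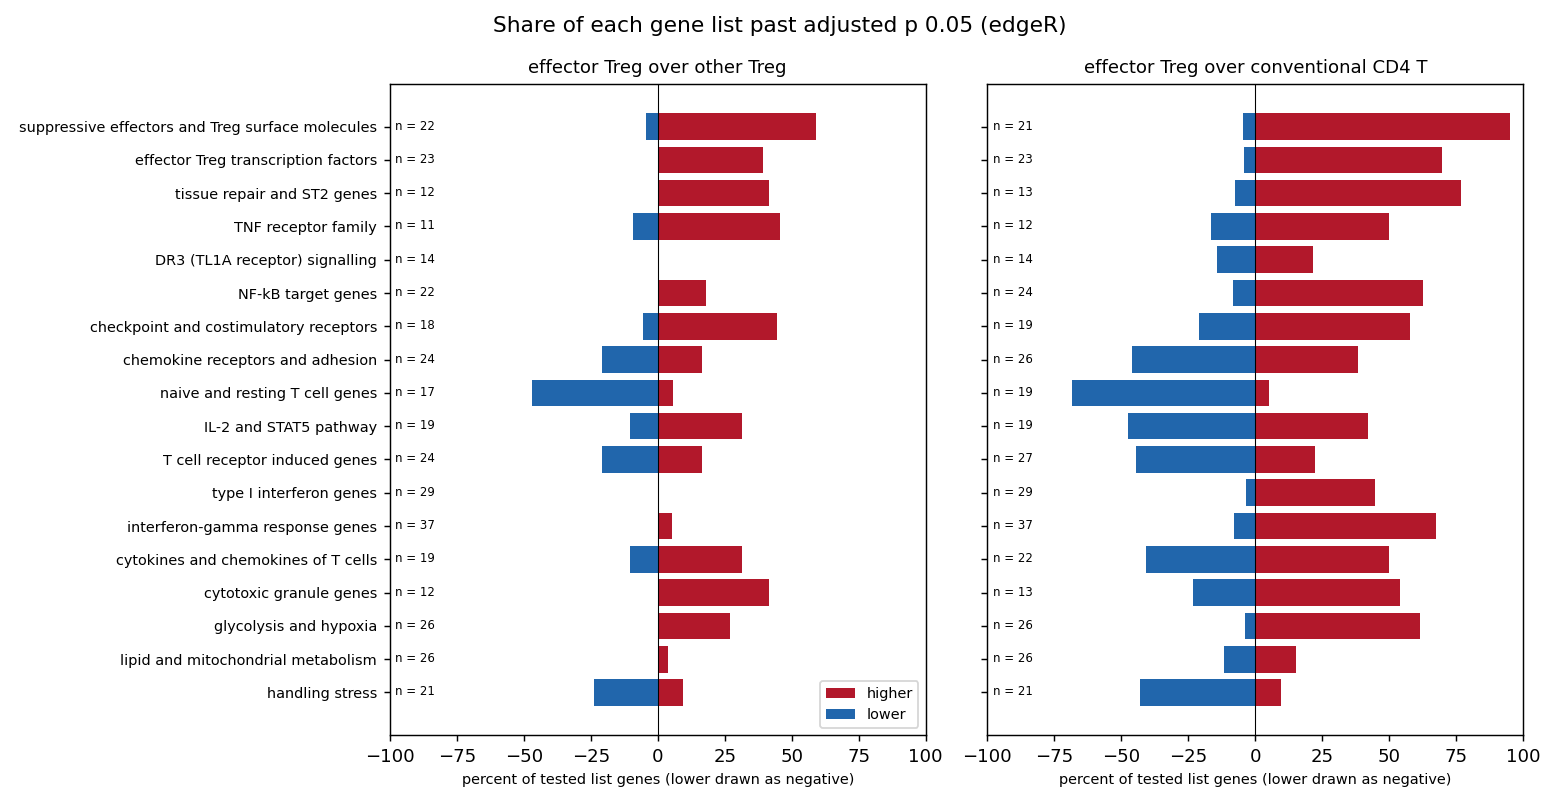
Percent of tested genes of each list that passed an adjusted p of 0.05, higher drawn to the right and lower to the left of 0, for effector Treg over other Treg and over conventional CD4 T barcodes. Suppressive effectors have 13 of 22 higher in the first comparison and 20 of 21 in the second, and naive and resting genes have 8 of 17 and 13 of 19 lower.

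What the treatments did to the members' transcripts was tested with edgeR on member sums, with 1 residual degree of freedom, that of the PBS pair, and with each treated library assumed to vary as that pair does. The spread was pooled over genes, with a median of 701 prior degrees of freedom (the weight of the pooled spread). SE and adjusted p of a gene thus rest almost wholly on that pooled spread and not on the gene's own. Of 10969 genes, antiPD1 had 96 higher and 65 lower than PBS (0.875% and 0.593%, 161 or 1.47% in all), and antiPD1TL1A had 84 higher and 36 lower than PBS (0.766% and 0.328%, 120 or 1.09%). AntiPD1TL1A over antiPD1, which compares 2 libraries and not the conditions, had 126 higher and 99 lower (1.15% and 0.903%, 225 or 2.05%). The 3 comparisons share libraries. Calls at an unadjusted p under 0.05 numbered 1240, 805 and 1392, and DESeq2 called 3, 1 and 3 genes. Of these, 0, 1 and 2 were higher and 3, 0 and 1 lower, so no rise in antiPD1 over PBS named below was called by DESeq2. Members over 15000 UMIs carried many calls, and without them antiPD1 over PBS had 46 of 10434 genes called (0.441%; 0.374% higher and 0.0671% lower), antiPD1TL1A over PBS 63 (0.604%; 0.498% higher and 0.105% lower) and antiPD1TL1A over antiPD1 57 (0.546%; 0.211% higher and 0.335% lower), of which 33, 41 and 49 were among the first calls. Of the 65 genes lower in antiPD1, 45 (69.2%) had at least 25% of a library's UMIs in 1 barcode, against 12 (12.5%) of the 96 higher ones. In antiPD1TL1A over PBS it was 56 (66.7%) of the 84 higher and 8 (22.2%) of the 36 lower. In antiPD1TL1A over PBS, H2-Ab1 was called in both fits but in opposite directions (-0.56 with all members and 0.80 without, adjusted p = 0.00883), and is counted among the 41. Log2 fold changes called below are therefore followed by the value without those members.

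**Figure D4:**
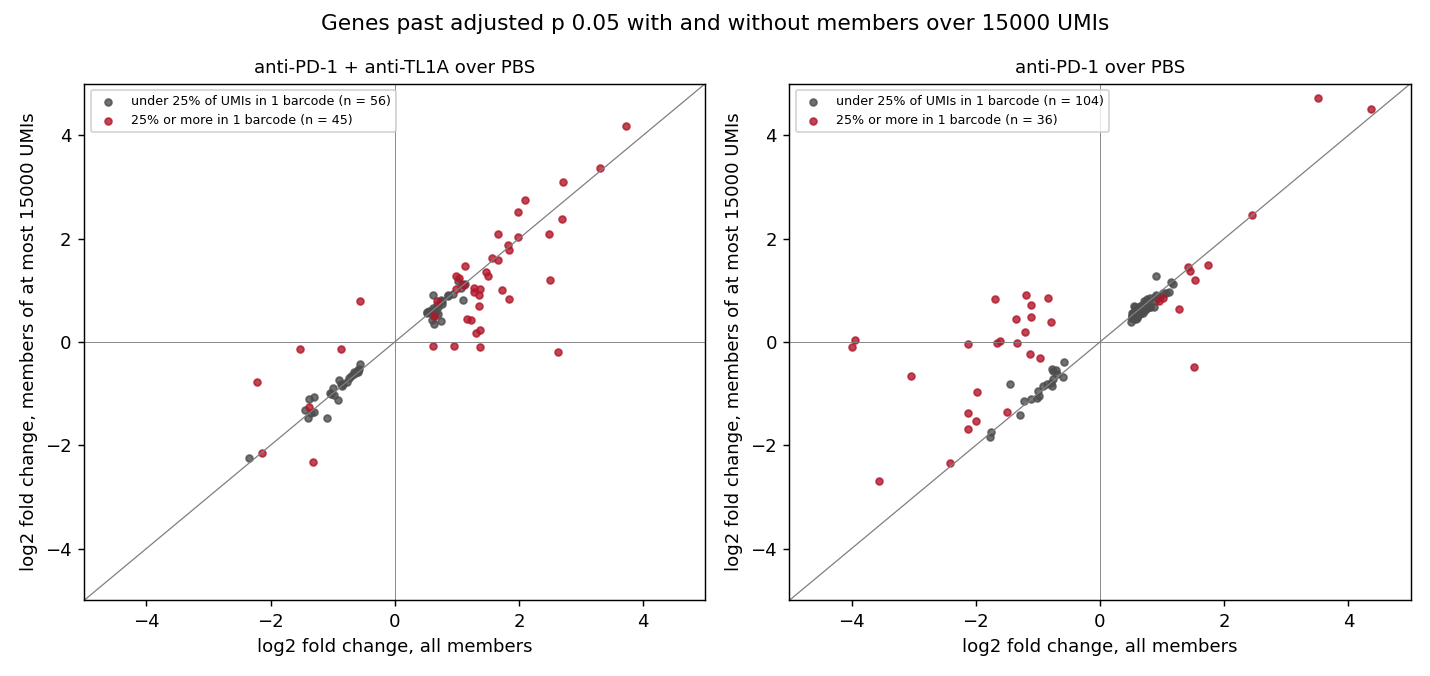
Log2 fold change of each called gene with all members (x axis) and without members over 15000 UMIs (y axis), 1 panel per comparison, with the called genes that concentrate in 1 barcode marked. Of the 65 genes lower in antiPD1 than in PBS (median -1.65), 20 have no y value because they fell below the filter on low counts, and of the 45 with one (median -0.68) 6 were still called and 10 lie above 0.

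Genes called higher in antiPD1 than in PBS both with and without members over 15000 UMIs included the chemokine genes Ccl3 and Ccl4 and the granule gene Nkg7. Of the cytotoxic granule genes 2 of 12 were higher (Nkg7 and Prf1; median 0.11 against -0.02 over all genes), and without those members 2 of 10 were higher (Nkg7 and Gzmc) and 1 lower (Gzma). Nkg7, a granule protein of cytotoxic lymphocytes (chromosome 7, 43437073 to 43438249), had 605 CPM in antiPD1 against 322 CPM in PBS 1 and 298 CPM in PBS 2 (0.97 ± 0.16 on the log2 scale, adjusted p = 1.03e-06; 0.86 and adjusted p = 0.000535 without members over 15000 UMIs). Markers of CD8 T or cytotoxic cells, Nkg7 among them, summed to 1766 CPM in antiPD1 against 1224 and 1057 CPM in PBS 1 and PBS 2, with Cd8a and Cd8b1 at 0 by the rule, and their part was not tested. Ccl4, which encodes a chemokine, had 382 CPM in antiPD1 against 243 and 172 CPM in PBS 1 and PBS 2 (0.88 ± 0.15; 0.88 without), and Ccl3 had 112 CPM against 58.4 and 45.7 CPM (1.11 ± 0.19; 0.96 without). Zbtb32, a transcriptional repressor of activated lymphocytes (chromosome 7, 30589681 to 30598909), had 33.8 CPM in antiPD1 against 3.27 and 8.75 CPM in PBS 1 and PBS 2 (2.45 ± 0.41, adjusted p = 4.2e-06; 2.46 without). It was spread over 46 of 464 members in antiPD1, against 5 of 288 in PBS 1 and 15 of 285 in PBS 2, and without PBS 2 the value was 3.34. Runx3 (0.54 ± 0.16; 0.70 without, adjusted p = 0.0227) and Fcer1g, an adaptor of Fc receptors (0.91 ± 0.17; 1.28 without), also passed with and without those members. The macrophage and monocyte marker list, to which Fcer1g belongs, summed to 367 CPM in antiPD1 against 283 and 266 CPM in PBS 1 and PBS 2, and its part was not tested. In CD8 T barcodes antiPD1 over PBS stood at 0.62 for Nkg7, 0.99 for Ccl3, 0.22 for Ccl4, 0.81 for Zbtb32, -0.15 for Runx3 and 0.33 for Fcer1g. In macrophage barcodes these genes stood at 1.19, -1.08, -1.16, 1.18, 0.30 and 0.62 in the same order.

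The suppressive list had 3 of 23 genes higher under antiPD1 and none lower (median 0.19 against -0.02 over all genes), and 0 of 23 in either direction without members over 15000 UMIs. Tnfrsf4 stood at 2027 CPM in antiPD1 against 1217 CPM in PBS 1 and 1252 CPM in PBS 2 (0.72 ± 0.21, adjusted p = 0.0452), and Tnfrsf18 at 1058 CPM against 642 and 659 CPM (0.70 ± 0.18, adjusted p = 0.0146). Without members over 15000 UMIs they were at 0.61 and 0.61 and no longer passed (adjusted p = 0.252 and 0.16). In the same libraries Tnfrsf4 was also higher in antiPD1 over PBS in other Treg (0.76), conventional CD4 (0.99) and CD8 T barcodes (0.60) and in macrophage barcodes (2.35), and Tnfrsf18 in other Treg (0.93), conventional CD4 (0.73), CD8 T (0.55) and macrophage barcodes (1.24). Nt5e (chromosome 9, 88327197 to 88372092) had 417 CPM in antiPD1 against 318 and 231 CPM in PBS 1 and PBS 2 (0.61 ± 0.15, adjusted p = 0.0106; 0.60 and adjusted p = 0.0523 without), at -0.22 in CD8 T and 0.26 in macrophage barcodes.

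Pdcd1 had 79.5 CPM in antiPD1 against 48.6 and 38.4 CPM in PBS 1 and PBS 2 (0.87 ± 0.22, adjusted p = 0.0118), Areg 495 CPM against 336 and 321 CPM (0.59 ± 0.16, adjusted p = 0.0198), Cxcr3, the receptor of interferon-induced chemokines, 94.5 CPM against 55.1 and 59.3 CPM (0.72 ± 0.20, adjusted p = 0.0311), and Lgals1, which encodes galectin-1, 2226 CPM against 1429 and 1253 CPM (0.73 ± 0.21, adjusted p = 0.0452). In each case antiPD1 lay above both PBS libraries. None of the 4 passed without members over 15000 UMIs (0.69, 0.46, 0.62 and 0.75; adjusted p = 0.186, 0.273, 0.178 and 0.105). In CD8 T barcodes the 4 stood at 0.12, 0.68, 0.50 and 0.93 over PBS, and in macrophage barcodes at 2.20, -0.03, 0.07 and 0.50. Prf1, which encodes perforin, was called with all members (1.28 ± 0.22) and stood at 0.63 without those members (adjusted p = 0.313). Its value was 1.12 in CD8 T and 0.65 in macrophage barcodes. NF-kB target genes had 0 of 24 called (median 0.20), DR3 signalling genes 0 of 14 (median 0.03) and type I interferon genes 0 of 29 (median -0.04). Il2ra (0.13 ± 0.21), Ctla4 (-0.18 ± 0.22), Ikzf2 (-0.01 ± 0.26), Icos (0.19 ± 0.21), Gzmb (0.10 ± 0.21) and Il10 (0.16 ± 0.15) did not pass, and errors of this size leave room for changes in either direction.

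Many of the falls under antiPD1 were concentrated in single barcodes. Psd3 and Fn1 had 94.8% and 86.9% of their UMIs of PBS 1 in 1 barcode, and their log2 fold changes of -3.99 and -3.94 became -0.10 and 0.04 without members over 15000 UMIs. H2-Eb1, H2-Aa and H2-Ab1, MHC class II genes of dendritic cells, macrophages and B cells, were called lower (-1.65, -1.22 and -1.11) and stood at -0.02, 0.20 and 0.49 without those members. Dendritic markers, a list that holds H2-Aa and H2-Ab1 themselves, summed to 251 CPM in antiPD1 against 404 and 593 CPM in PBS 1 and PBS 2. The part of such cells was not tested. Dip2c fell with them and without them (-1.23 ± 0.23; -1.14, adjusted p = 0.00456), at 36.9 CPM in antiPD1 against 105 and 69.1 CPM in PBS 1 and PBS 2. Bach2 was at 151 CPM in antiPD1 against 238 and 211 CPM (-0.57 ± 0.16, adjusted p = 0.0293; -0.38 and adjusted p = 0.423 without).

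Under antiPD1TL1A the suppressive list had 2 of 23 genes higher and none lower (median 0.03 against -0.01 over all genes), and the same count without members over 15000 UMIs. Itgb8 had 258 CPM in antiPD1TL1A and 205 CPM in antiPD1, against 144 CPM in PBS 1 and 162 CPM in PBS 2 (antiPD1TL1A over PBS 0.75 ± 0.15, adjusted p = 0.000268; 0.74 and adjusted p = 0.00222 without members over 15000 UMIs). Lag3 (chromosome 6, 124904361 to 124911705) had 132 CPM in antiPD1TL1A and 130 CPM in antiPD1, against 73.7 and 98.7 CPM in PBS 1 and PBS 2; only antiPD1TL1A over PBS passed (0.61 ± 0.17, adjusted p = 0.0346; 0.66 and adjusted p = 0.0479 without), antiPD1 over PBS lay just beyond the threshold (0.59 ± 0.17, adjusted p = 0.0512), and antiPD1TL1A over antiPD1 was 0.02 ± 0.19. Ccl4 and Ccl3 rose here too, to 420 and 87.7 CPM in antiPD1TL1A, by 1.02 ± 0.15 and 0.76 ± 0.19 over PBS (1.18 and 0.80 without those members). Il18r1, a chain of the interleukin-18 receptor, had 279 CPM in antiPD1TL1A against 167 and 215 CPM in PBS 1 and PBS 2 (0.54 ± 0.14, adjusted p = 0.0256) and narrowly passed without members over 15000 UMIs (0.58, adjusted p = 0.0461). In CD8 T barcodes Itgb8 stood at 0.72 and Lag3 at 0.76 over PBS, and Il18r1 at 0.04. In macrophage barcodes Itgb8 stood at 2.33, Lag3 at 1.09 and Il18r1 at 1.14.

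Naive and resting T cell genes had 3 of 17 higher in antiPD1TL1A than in PBS (median 0.38) and none lower, and 2 of 16 (Ccr7 and Bcl2) without members over 15000 UMIs. Klf2 had 192 CPM in antiPD1TL1A and 99.2 CPM in antiPD1, against 113 and 122 CPM in PBS 1 and PBS 2 (antiPD1TL1A over PBS 0.70 ± 0.16, adjusted p = 0.00258; 0.54 and adjusted p = 0.176 without members over 15000 UMIs). Btg2, an antiproliferative gene and also a handling stress gene, had 165 CPM in antiPD1TL1A and 69.6 CPM in antiPD1, against 107 and 97.3 CPM in PBS 1 and PBS 2 (0.69 ± 0.16; 0.67 and adjusted p = 0.0368 without). Aff3, one of the genes lower in effector than in other Treg, had 151 CPM in antiPD1TL1A and 71.7 CPM in antiPD1, against 79.7 and 61.3 CPM in PBS 1 and PBS 2 (1.10 ± 0.17; 0.82 and adjusted p = 0.0117 without), at -0.55 in CD8 T and -0.20 in macrophage barcodes. Set against antiPD1, antiPD1TL1A had 4 of 17 such genes higher (S1pr1, Klf2, Bach2 and Bcl2; median 0.55 against 0.01 over all genes). Bcl2 had 184 CPM in antiPD1TL1A and 71.7 CPM in antiPD1 (1.36 ± 0.27, adjusted p = 0.0102; 1.01 and adjusted p = 0.00459 without), with 172 and 103 CPM in PBS 1 and PBS 2, so the PBS libraries themselves lay far apart. Handling stress genes moved in the same comparison, with 4 of 22 higher (Hspa1a, Fos, Btg2 and Zfp36), and their part was not tested. Without members over 15000 UMIs, 1 of 16 naive and resting genes (Bcl2) and 3 of 22 handling stress genes were higher.

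Several genes changed with the same sign in other cells of the same libraries. Cebpb had 164 CPM in antiPD1TL1A and 56.6 CPM in antiPD1, against 90.0 and 59.3 CPM in PBS 1 and PBS 2 (antiPD1TL1A over PBS 1.14 ± 0.17; 1.13 without), and antiPD1TL1A over PBS was 0.84 in CD8 T and 1.22 in macrophage barcodes. Cdk8, a kinase of the Mediator complex, had 325 CPM in antiPD1TL1A and 932 CPM in antiPD1, against 617 and 670 CPM (-0.99 ± 0.19; -0.90 without; -0.88 in CD8 T and -0.74 in macrophage barcodes). Pfn1, which binds actin monomers, had 1222 CPM in antiPD1TL1A and 429 CPM in antiPD1, against 787 and 562 CPM (antiPD1TL1A over antiPD1 1.51 ± 0.22; 1.59 without; 1.61 in CD8 T and 1.54 in macrophage barcodes). Lars2 had 498 CPM in antiPD1 against 312 and 275 CPM in PBS 1 and PBS 2 (0.76 ± 0.15; 0.68 without; 0.80 in CD8 T barcodes). Over all 161 genes called in antiPD1 over PBS, 49.1% had the same sign in CD8 T barcodes with a change at least 50% as large, against 44.8% of all genes tested, and 48.4% in macrophage barcodes, against 45.5%. In antiPD1TL1A over PBS the shares were 39.5% of called genes in CD8 T and 29.8% in macrophage barcodes, against 37.5% of all genes in either class. In antiPD1TL1A over antiPD1 they were 44.4% in CD8 T and 38.1% in macrophage barcodes, against 45.1% and 46.4% of all genes. Called genes thus lay above the share of all genes in 3 of these 6 pairs and below it in the others, and the differences were not tested. These shares pool rises and falls. Of the genes called in antiPD1 over PBS, most of the 96 higher met this criterion in CD8 T barcodes, and most did in macrophage barcodes. Few of the 65 lower did in either class. The share over all genes that rose was not measured, and the part of a shift common to the cells of the library was not tested.

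**Figure D5:**
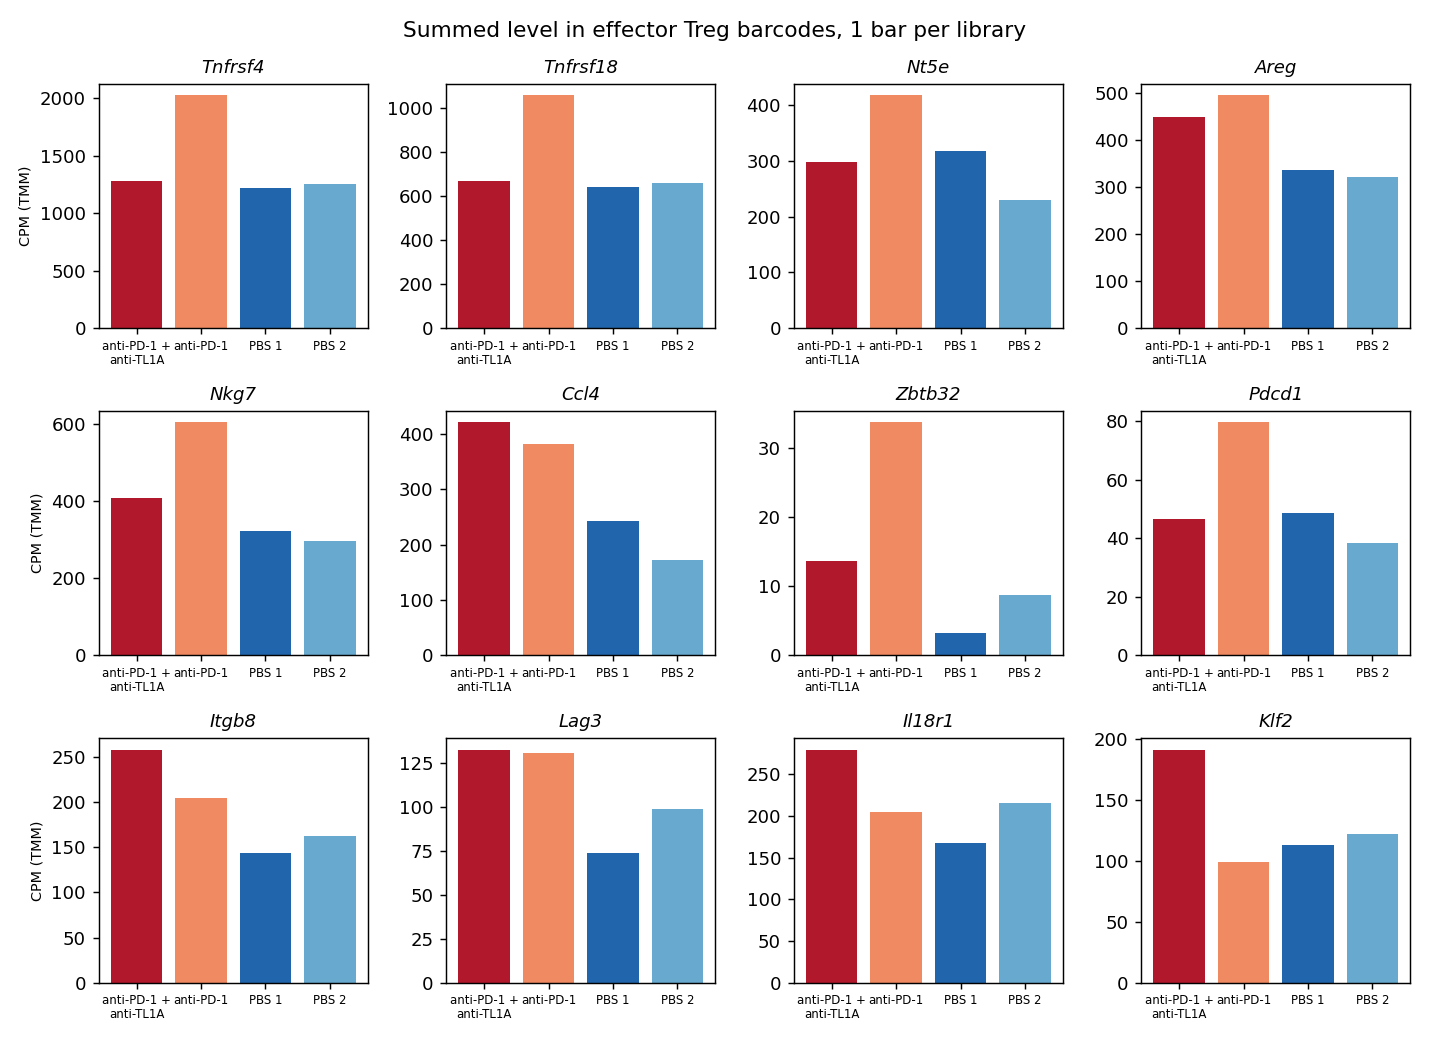
TMM-scaled CPM summed over effector Treg for 12 genes, 1 bar per library from 0, with no error bars since each bar is 1 library. Tnfrsf4, Tnfrsf18, Nkg7, Zbtb32 and Pdcd1 are highest in antiPD1, and Itgb8 and Klf2 are highest in antiPD1TL1A.

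Markers of other cell types were higher beside some of the genes called in antiPD1TL1A over PBS. The NK receptor genes Klrk1 and Klre1 were higher than in PBS. Klrk1 had 52.1 CPM in antiPD1TL1A and 32.7 CPM in antiPD1, against 26.7 and 24.3 CPM in PBS 1 and PBS 2 (1.03 ± 0.25, adjusted p = 0.00879, and 1.24 without members over 15000 UMIs). Klre1 rose by 1.13 (1.48 without). NK markers, a list that holds Klre1 itself, summed to 309 CPM in antiPD1TL1A and 138 to 192 CPM in the other 3 libraries, and their part was not tested. S100a8, a neutrophil gene, was called in both treated libraries (4.36 ± 0.63 in antiPD1 and 3.73 ± 0.64 in antiPD1TL1A over PBS; 4.51 and 4.18 without) with 38 of 43 UMIs in 1 barcode of antiPD1 and 34 of 40 in 1 barcode of antiPD1TL1A. Kirrel3 rose by 2.63 ± 0.23 in antiPD1TL1A over PBS and stood at -0.20 without members over 15000 UMIs. Cxcl9, an interferon-gamma induced chemokine of myeloid cells, had 60.8 CPM in antiPD1TL1A and 19.2 CPM in antiPD1, against 23.5 and 7.78 CPM in PBS 1 and PBS 2 (1.98 ± 0.34; 2.51 without members over 15000 UMIs), and its value was 2.96 without PBS 1 and 1.37 without PBS 2.

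The treatment effect in effector Treg was last set against that in other Treg. Over 10558 genes, edgeR called 2 differences for antiPD1 (0.0189%) and 21 for antiPD1TL1A (0.199%; 0.0379% higher and 0.161% lower in effector Treg). Other Treg numbered 22 to 73 barcodes per library, and the differences that met the naming rule rested on single barcodes of other Treg. Itgb8 stood at 2.4 ± 0.63 for antiPD1TL1A (adjusted p = 0.0692). Neither Tnfrsf4, Tnfrsf18, Areg, Itgb8 nor Lag3 was called, which at this number of barcodes does not show that the effects are alike.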

How the data were processed

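Gene counts per barcode were deposited by the authors as 10x matrices of raw UMI counts for 4 libraries. Cell Ranger 3.0.2 with mm10 is listed in the submitters' processing notes, but version 7.1.0 made the matrices, per the file headers. No source used here says if intronic reads were counted. Deposited barcodes numbered 37588, with 78648222 to 142600208 UMIs per library. No doublet caller was run, and doublets were limited only through the caps on Cd8a, Cd8b1, C1q and Lyz2 UMIs.

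From the deposited counts, UMIs were summed per library and class. The sums were tested with edgeR 4.0.16 (R 4.3.3; TMM scaling, filterByExpr with a minimum count of 10, robust quasi-likelihood F tests, Benjamini-Hochberg adjusted p over all genes tested, threshold 0.05). SE were derived from the F statistic. Class comparisons had the library as a block. The treatment fit had the 4 member sums. The biological coefficient of variation was 11.4% in the treatment fit, 13.6% against other Treg and 9.17% against conventional CD4 T barcodes. Rule genes were left out of what is named.

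On simulated counts with log2 changes of 1 and 2, 36% and 90% were recovered for antiPD1 over PBS, 48% and 91% for antiPD1TL1A over PBS, 44% and 83% for effector over other Treg and 77% and 96% for effector Treg over conventional CD4 T barcodes. The simulation gave every gene the same coefficient of variation and concentrated no UMIs in single barcodes, so recovery in the data may be lower. Alternatives were DESeq2 1.42.0, other scaling, filters, rules, depths and left-out libraries. Leaving out members over 15000 UMIs, admitting Cd8 UMIs and adding barcodes with 1 Ccr8 or Tnfrsf9 UMI to other Treg were chosen after seeing the data. The members, gene lists and tests were chosen with earlier results of these data known.

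Genes named are 43 chosen for their known roles in Treg, the 12 called genes of smallest p per direction and treatment comparison, the 15 largest rises and 12 largest falls per class comparison with a mean of at least 50 CPM, and called list genes; examples were taken from these. Python 3.11.15, numpy 2.4.6, scipy 1.17.1 and pandas 2.3.3 were used. Positions are from GENCODE M21 on GRCm38. Genes that share over 10% of the 31-base stretches of their last 500 bases with another gene are uncertain. Among them are Gbp6 (88.3%), Klrc1 (68.7%), Ifitm3 (28.3%), Ifitm1 (26.6%), Gm11033 (24.0%), Fabp5 (22.8%), Tigit (14.4%) and Cd63 (10.4%). They also include members of the gene lists, such as Bcl2a1b (93.4%), Eno1 (84.3%), Psme2 (68.7%), Mif (45.7%), Gapdh (41.7%) and Il2 (33.4%). Further such genes are not listed here.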

Additional observations from a re-analysis of the deposited data

Results flagged for a closer look

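In the comparison of treatment effects between effector and other Treg, 6 genes of smallest p differed by edgeR's test of the difference itself. For antiPD1TL1A over PBS, the effect in effector Treg minus that in other Treg was -8.32 on the log2 scale for Ifitm1 (adjusted p = 2.5e-22), -3.60 for Ifitm3 (adjusted p = 2.11e-06), -10.71 for Il1b (adjusted p = 5.75e-06), -5.46 for Dip2c (adjusted p = 0.000159) and -10.57 for Gm11033 (adjusted p = 0.000853). For antiPD1 over PBS it was -11.77 for Psd3 (adjusted p = 0.00508). These values depend on the prior count, since other Treg had 0 to 4 UMIs of these genes in a PBS library, and are no measure of size. The median prior degrees of freedom were infinite in this fit, so the adjusted p rest on the spread pooled over genes.

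Of the UMIs in other Treg of antiPD1TL1A, 91 of 100 for Ifitm1, 61 of 73 for Ifitm3, 29 of 44 for Il1b, 22 of 29 for Dip2c and 37 of 37 for Gm11033 lay in 1 barcode, and 5 of 5 for Psd3 in antiPD1. Neutrophil markers summed to 509.5 CPM in other Treg of antiPD1TL1A and 34.0 CPM in those of antiPD1, against 0 CPM in PBS 1 and 51.3 CPM in PBS 2; their part was not tested.

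Barcodes outside the rule also drew attention. Of Foxp3 T barcodes, 36.2% held a Cd8a or Cd8b1 UMI in antiPD1TL1A (320 of 884, interval 33.0 to 39.5) and 18.0% in antiPD1, against 18.0% in PBS 1 and 24.4% in PBS 2. Those with at least 5 such UMIs made up 25.3%, 9.06%, 10.3% and 15.7% of Foxp3 T barcodes in antiPD1TL1A, antiPD1, PBS 1 and PBS 2. Their median depths were 16195.5, 13346, 14571 and 20824 UMIs, against 5053.5, 3552, 5164.5 and 6066.5 UMIs in Foxp3 T barcodes without a Cd8 UMI. Macrophage barcodes held a Cd8 UMI in 5.58%, 3.75%, 3.11% and 2.25% of cases. The part of doublets in this share was not tested.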

How the results depend on the processing

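Scaling by relative log expression or dropping the low-count filter kept all counts within 1.5 times. Counts of called genes are given for antiPD1 over PBS, antiPD1TL1A over PBS and antiPD1TL1A over antiPD1. They were 3, 1 and 3 with DESeq2, 69, 9 and 47 with at least 2 Foxp3 UMIs, 102, 35 and 99 with at least 3 Ccr8 and Tnfrsf9 UMIs, 42, 22 and 63 with at least 2000 UMIs per barcode, 11, 53 and 34 without barcodes holding UMIs of other cell types, and 46, 63 and 57 without members over 15000 UMIs. With library sums thinned to equal totals, 58 were called in antiPD1TL1A over PBS. No paired analysis was possible because each treated group is 1 library, so treatment comparisons could not be blocked.

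Class comparisons had the library as a block. Without that block, 297 genes differed between effector and other Treg (144 higher, 153 lower) and 2745 between effector Treg and conventional CD4 T barcodes, and among the core genes Ctla4, Pdcd1, Bcl2, Tnfrsf1b, Tnfrsf18, Lag3, Cd27, Tgfb1, Il2rb, Lgals1 and Tigit lost their call against other Treg (adjusted p = 0.0615 to 0.277). DESeq2 called 297 and 2218. Leaving out 1 library gave 256 to 405 and 2881 to 3272. Differences between treatment effects numbered 23 in all, 3 among barcodes of 3000 to 8000 UMIs and 1 with DESeq2.

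The members' share of Foxp3 T barcodes is given in the order antiPD1TL1A, antiPD1, PBS 1 and PBS 2. It was 36.8%, 42.2%, 44.4% and 32.5% with 1000 UMIs per barcode, 65.3%, 60.5%, 64.8% and 59.7% with 2000, and 77.6%, 74.4%, 75.0% and 73.7% with 3000. With at least 2 Foxp3 UMIs it was 86.9%, 81.1%, 88.7% and 89.0%, and with at least 3 Ccr8 and Tnfrsf9 UMIs 75.2%, 66.6%, 75.1% and 79.9%. Of T barcodes the share was 2.04%, 3.46%, 2.73% and 1.89% with 1000 UMIs, 4.52%, 6.78%, 5.42% and 5.60% with 2000, and 5.88%, 7.34%, 6.54% and 7.99% with 3000. It was 5.11%, 6.75%, 6.44% and 7.77% with at least 2 Foxp3 UMIs, 6.78%, 8.56%, 8.05% and 9.29% with at least 3 Ccr8 and Tnfrsf9 UMIs, and 10.99%, 11.7%, 10.8% and 12.5% with no limit on Cd8 UMIs.

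Some genes changed sign. For antiPD1 over PBS, Kirrel3 (1.51) was at -1.75 with at least 2 Foxp3 UMIs, -1.72 with at least 3 Ccr8 and Tnfrsf9 UMIs and -0.48 without members over 15000 UMIs, Hmga2 at -2.33 and -1.85 in the first and second of these settings, and S100a9 at -0.82 in the second. Without members over 15000 UMIs, Fn1, H2-Aa and H2-Ab1 were at 0.039, 0.20 and 0.49. Without UMIs of other cell types, H2-Eb1, H2-Ab1, Col6a1, Bnc2 and Col6a2 were at 0.36, 0.65, 0.36, 0.99 and 0.16. For antiPD1TL1A over PBS, Kirrel3 and H2-Ab1 were at -0.20 and 0.80 without members over 15000 UMIs, S100a8 and S100a9 at -0.38 and -1.66 with at least 2 Foxp3 UMIs, and Psd3, Fn1 and H2-Ab1 at 1.78, 1.74 and 0.79 without UMIs of other cell types. For antiPD1TL1A over antiPD1, Fn1 and Psd3 were at -0.17 and -1.15 without members over 15000 UMIs. Gzmc in effector over other Treg was at -0.00028 among barcodes of 3000 to 8000 UMIs and at -0.24 without UMIs of other cell types, where Klre1 in effector Treg over conventional CD4 T barcodes was at -0.52. The cause was not tested. Depth limits Ccr8, Tnfrsf25 and the split of Foxp3 barcodes at low UMI counts.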

Other observations

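Genes of the interleukin-2 and STAT5 pathway had 6 of 19 higher and 2 lower in effector Treg than in other Treg (median 0.15), against 2.84% and 2.38% of all genes. Besides Il2ra, these were Il2rb, the receptor's beta chain, the feedback inhibitors Cish and Socs2, the survival gene Bcl2l1 and Il15ra, while Stat5b and Bcl2 were lower. The call of Il2rb was lost without PBS 1, antiPD1 or antiPD1TL1A (adjusted p = 0.0798, 0.143 and 0.216) and with DESeq2 (adjusted p = 0.138). Genes induced by the T cell receptor were split, with 4 of 24 higher (Dusp4, Nfat5, Tnfrsf4 and Rgs16) and 5 lower (Egr1, Fos, Fosb, Junb and Rgs1; median -0.04). Of the lower ones, Egr1, Fos, Fosb and Junb are also handling stress genes, of which 2 of 21 were higher and 5 lower.

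Against conventional CD4 T barcodes, 13 of 29 type I interferon genes were higher and 1 lower (median 0.41), against 18.4% and 16.9% of all genes, among them Isg15, Irf7 and Stat2. Lipid and mitochondrial metabolism genes had 1 of 26 called higher than in other Treg (Fabp5, a fatty acid binding protein) and 4 higher and 3 lower than in conventional CD4 T barcodes, which is close to or below the shares of all genes (2.84% higher in the first comparison). No list gene of type I interferon was called in a treatment comparison (0 of 29 in antiPD1 over PBS, in antiPD1TL1A over PBS and in antiPD1TL1A over antiPD1; medians -0.04, -0.27 and -0.20).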
